A study of Anopheles arabiensis with 20 samples.

Results

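The genes described here are 101 nuclear genes of the malaria mosquito *Anopheles arabiensis* whose mean RNA level was lower in a laboratory strain from Mozambique than in each other group of the study. They were chosen by measured values. Counts of each library were divided by the sum of its counts on gene IDs starting with AARA and multiplied by 1000000 to give counts per 1000000 (CPM), and the mean CPM was taken over the 4 libraries of each group. A gene was a member when the lowest of the 4 other group means was at least 1 CPM and at least 2.5 times the mean of the Mozambique strain. Of the 13867 genes counted, 13830 carry AARA IDs, and 9861 of these had all 4 other means at or above 1 CPM.

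RNA was sequenced from 20 libraries in 5 groups of 4 biological replicates. MOZ is the insecticide-susceptible laboratory strain from Mozambique. The field populations Asendabo (ASN), Chewaka (CHW) and Tolay (TOL) come from the south-west of Ethiopia, reared to adults from collected larvae and described in the labels as resistant to deltamethrin and DDT. SEK (Sekoru) is a susceptible laboratory strain from Ethiopia. Every library held the RNA of 10 whole females, aged 3 to 5 days and without a blood meal, so a level is an average over 10 animals and all their tissues. In such bulk samples fewer cells of a type and less RNA per cell cannot be told apart. The labels give no number of founders or generations for MOZ, and its 4 libraries are pools of 1 strain. Throughout, p-values measure the spread between such pools.

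As background, *Anopheles arabiensis* is one of the main African malaria vectors. Deltamethrin, a pyrethroid, and DDT both act on the voltage-gated sodium channel of insect nerve cells, and resistance is known to come from changes in that channel or from faster breakdown of the insecticide. A laboratory strain is bred apart from field populations over generations, and susceptible strains serve as the baseline against which resistant populations are compared. None of the 101 member IDs could be paired with a gene name, since the files hold IDs alone, so the members are given by ID, without a function and without sequence.

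Counts on AARA genes ran from 9868619 to 17643001 per library. MOZ libraries had 12078 to 12230 genes with at least 1 count, within the 12009 to 12321 of the other libraries. Against the mean of the 4 other groups, the median log2 ratio of MOZ was 0.06 over the 9861 genes and -2.56 over the members, which were chosen for it. A set of 114 genes present in TOL replicate 1 and absent from TOL replicates 2 to 4 held 0 of the members. Such genes could reach the rule's floor of 1 CPM for the TOL mean only through replicate 1, so nothing is read from this.

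Together the members took 0.0972% ± 0.0110 of the AARA counts in MOZ, against 0.682% ± 0.0588 in ASN, 0.581% ± 0.116 in CHW, 0.595% ± 0.0970 in TOL and 0.562% ± 0.0461 in SEK (mean ± SD, n = 4 each). The highest MOZ library stood at 0.109% and the lowest of the others, CHW replicate 4, at 0.416%. The other CHW libraries held 0.586% to 0.674%, so CHW replicate 4 was the low library among the 16 that are not MOZ.

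**Figure D1:**
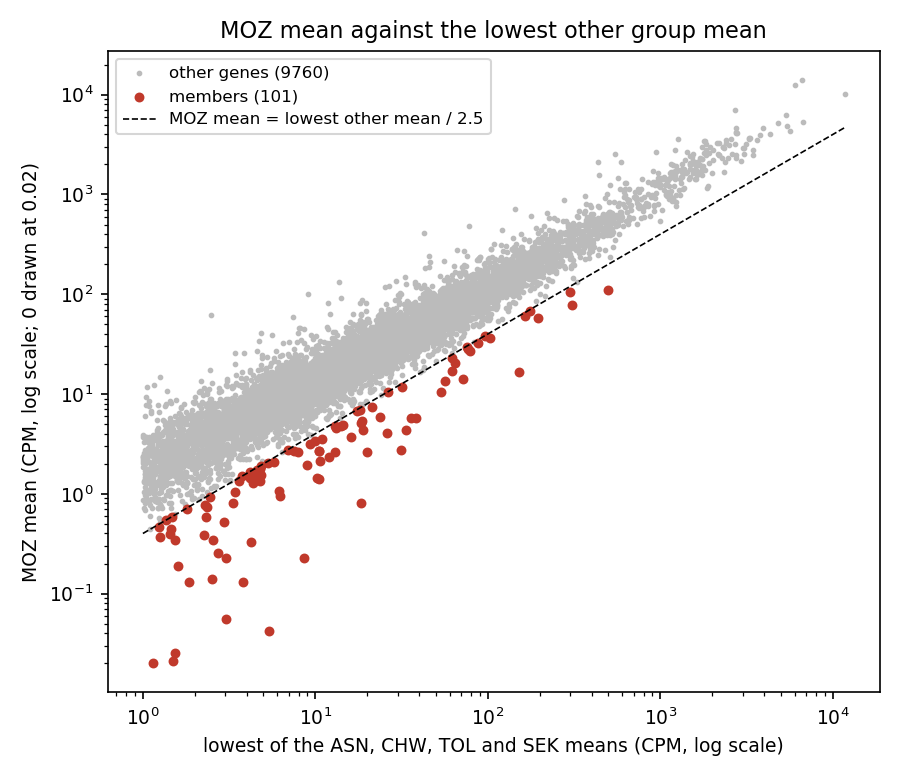
Mean CPM in MOZ (vertical, log scale) against the lowest of the ASN, CHW, TOL and SEK means (horizontal, log scale) for the 9861 nuclear genes with all 4 other means at or above 1 CPM. Red points are the 101 members, grey points the other genes, and the dashed line is the 2.5-fold limit that chose the members, which run down to a MOZ mean of 0.

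The size of the gap varied widely. The lowest other mean was 2.5 to under 5 times the MOZ mean in 70 members, 5 to under 10 times in 17 and 10 times or more in 14, with a median of 3.42. For these ratios the MOZ mean was set to no less than 0.0586 CPM, the level of 3 counts over all 4 MOZ libraries. Most members were modestly expressed, as the lowest other mean had a median of 8.96 CPM, was under 5 CPM in 41 members and reached 50 CPM or more in 19. In MOZ, 31 members averaged under 1 CPM and 21 averaged at least 10 CPM, which were reduced in MOZ and not lost.

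Many members lay close to the limit. The ratio was under 3 in 40 of the 101, and another 61 genes had a ratio from 2 to under 2.5 and stayed outside. Just inside was AARA008600, at 38.5 CPM in MOZ and 96.3 CPM in ASN, the lowest of its other means, a ratio of 2.501. Just outside was AARA002795, at 132 CPM in MOZ and 330 CPM in ASN, a ratio of 2.492.

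Applied to each other group in place of MOZ, the rule found 3 genes low only in ASN, 3 in CHW, 2 in TOL and 36 in SEK. The mirrored rule, for a mean at least 2.5 times every other mean, found 176 genes in MOZ, 17 in ASN, 7 in CHW, 15 in TOL and 106 in SEK. MOZ was thus the group with the most genes on either side by this rule, and it had fewer low genes than high ones.

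In 68 of the 101 members every MOZ library lay below every one of the 16 other libraries. Of the 9861 genes that could have met the rule, 394 (4.00%) showed this, but the rule used the same contrast, so nothing is read from that difference. In the other 33 members the groups overlapped, in 16 of them by 1 library. The overlapping libraries came from CHW in 21 members, SEK in 13, TOL in 11 and ASN in 6. In 7 members the median of another group lay at or below the highest MOZ library, that of SEK in 3, of ASN in 2 and of CHW in 2. CHW replicate 4 and SEK replicate 2 reached down to the MOZ range most often, in 11 members each.

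To read the rule in a MOZ library that it had not used, it was applied without 1 MOZ library at a time, which gave partly different genes, 81 to 95 of them members. It then found 108 genes without MOZ replicate 1, and in MOZ replicate 1 all 108 lay below the lowest other mean and 69 of them (63.9%) lay below it by at least 2.5 times. Without MOZ replicate 2 it found 115 genes, of which 108 lay below in that library and 69 (60.0%) by at least 2.5 times. Without MOZ replicate 3 there were 100 genes, 98 below and 74 (74.0%) past the limit, and without MOZ replicate 4 there were 88, all 88 below and 69 (78.4%) past it. Over all 9861 genes, 21.98% to 32.7% lay below the lowest other mean in a single MOZ library and 1.24% to 1.89% by at least 2.5 times. The lowest other mean was itself a value that the rule used, so these shares are a description.

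**Figure D2:**
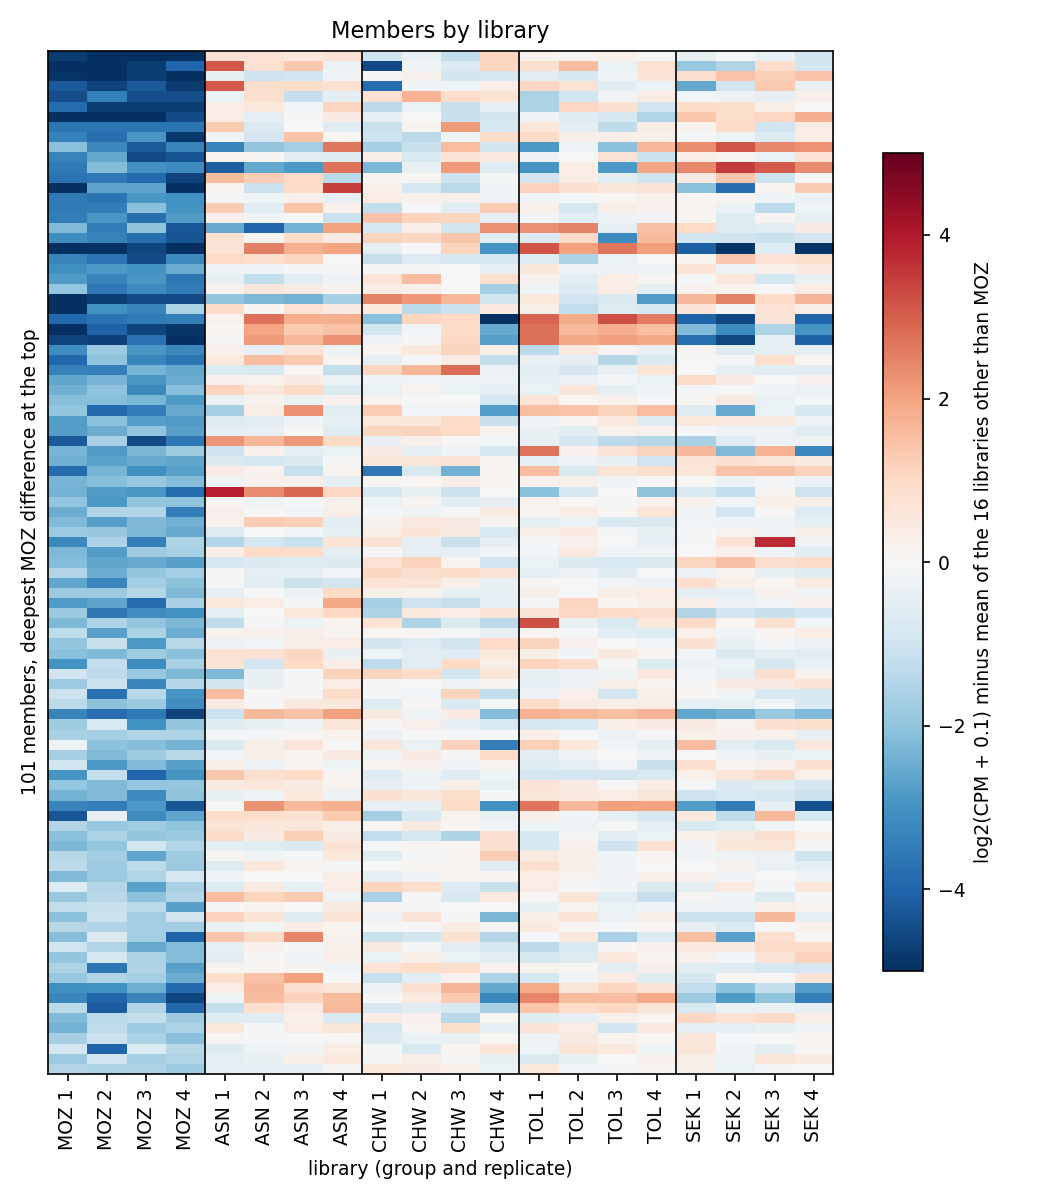
Each row is 1 of the 101 members, ordered from the largest to the smallest ratio of the lowest other mean to MOZ, and each column 1 library. Colour is log2(CPM + 0.1) minus the member's mean over the 16 libraries other than MOZ; the MOZ columns are blue in nearly every row, while blocks of red and blue to their right show members that also differed among ASN, CHW, TOL and SEK.

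The deepest differences were in genes that gave almost no MOZ reads. AARA016509 had 2 counts in MOZ replicate 1 and 0 in MOZ replicates 2, 3 and 4. In ASN it had 11.9, 11.8, 10.3 and 11.7 CPM, in CHW 3.41, 5.41, 2.94 and 15.1 CPM, in TOL 7.95, 7.87, 8.48 and 6.85 CPM, and in SEK 5.46, 6.94, 5.56 and 3.63 CPM. No library of the other groups came near MOZ, and ASN was the most even of them. Pooled over the 4 libraries, SEK, its lowest other group, exceeded MOZ by a ratio of 137 with a 95% exact interval of 37.5 to 1134 for counting error alone.

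AARA015692 and AARA015693, whose IDs are consecutive, were also nearly absent from MOZ but uneven elsewhere. AARA015692 had 0, 0, 1 and 2 counts in the 4 MOZ libraries. Its levels were 35.9, 7.07, 10.5 and 3.30 CPM in ASN, 0.0811, 3.55, 2.48 and 8.65 CPM in CHW, 7.25, 12.1, 3.19 and 7.03 CPM in TOL, and 1.01, 1.35, 7.46 and 2.25 CPM in SEK. AARA015693 had 2, 1, 3 and 1 counts in MOZ, and 41.8, 9.20, 9.26 and 8.33 CPM in ASN, 0.243, 4.48, 4.18 and 6.27 CPM in CHW, 10.2, 8.11, 3.27 and 3.86 CPM in TOL, and 0.742, 2.45, 12.4 and 3.78 CPM in SEK. In both genes ASN replicate 1 and SEK replicate 3 were the high libraries of their groups and CHW replicate 1 was the low one, near the MOZ level. For AARA015692 that CHW library fell within the MOZ range. The pooled ratio of the lowest other group to MOZ was 50.97 (17.1 to 250) for AARA015692, in SEK, and 28.5 (13.6 to 71.9) for AARA015693, in CHW, with 95% exact intervals for counting error.

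AARA000505 had 4, 0, 7 and 2 counts in MOZ, or at most 0.397 CPM. It had 9.95, 6.33, 6.66 and 11.3 CPM in ASN, 13.6, 14.97, 6.74 and 7.29 CPM in CHW, 8.97, 7.47, 11.3 and 20.6 CPM in TOL, and 23.6, 34.7, 29.6 and 34.8 CPM in SEK. Here the strains stood at opposite ends, with every SEK library above every field library and every MOZ library below them.

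At least 1 MOZ library stood at 0 in 11 members, and AARA000149 had all 4. It was a weak gene elsewhere too, with 0.662 to 2.93 CPM in ASN, 0.487 to 5.42 in CHW, 0.420 to 1.79 in TOL and 0.533 to 2.37 in SEK. Against the level of 3 counts over the MOZ libraries together, its lowest other mean, in TOL, was 19.4-fold higher, a size that depends on the level chosen. AARA005874 and AARA009441 had 1 MOZ count in all. The pooled ratio of the lowest other group to MOZ was 77.5 (13.5 to 3103) for AARA005874, in TOL, and 77.1 (13.4 to 3086) for AARA009441, in CHW. These wide intervals show how little a single count fixes the size of the gap.

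The most abundant members were reduced in MOZ without being lost. AARA016512 had 123, 125, 112 and 76.4 CPM in MOZ, against 424 to 634 CPM in ASN, 300 to 612 in CHW, 519 to 856 in TOL and 428 to 742 in SEK. AARA015862 had 67.5, 76.3, 90.8 and 75.2 CPM in MOZ, against 244 to 396 CPM in ASN, 350 to 430 in CHW, 296 to 419 in TOL and 273 to 348 in SEK. Both were nearly level across the other 4 groups, whose means differed by 1.31 times in AARA016512 and 1.23 times in AARA015862.

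AARA016433 and AARA015865 were as abundant but differed among the other groups as well. AARA016433 had 72.8, 243, 36.2 and 71.4 CPM in MOZ, so that MOZ replicate 2 set most of the mean. It had 1452, 983, 1095 and 607 CPM in ASN, 354, 467, 368 and 479 CPM in CHW, 288, 287, 294.03 and 330 CPM in TOL, and 660, 847, 1094 and 669 CPM in SEK. The gap between MOZ replicate 2 and the lowest TOL library, 243 against 287 CPM, was narrow. AARA015865 had 70.9, 53.5, 56.3 and 48.7 CPM in MOZ, against 181 to 205 CPM in ASN, 160 to 713 in CHW, 191 to 259 in TOL and 563 to 898 in SEK.

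**Figure D3:**
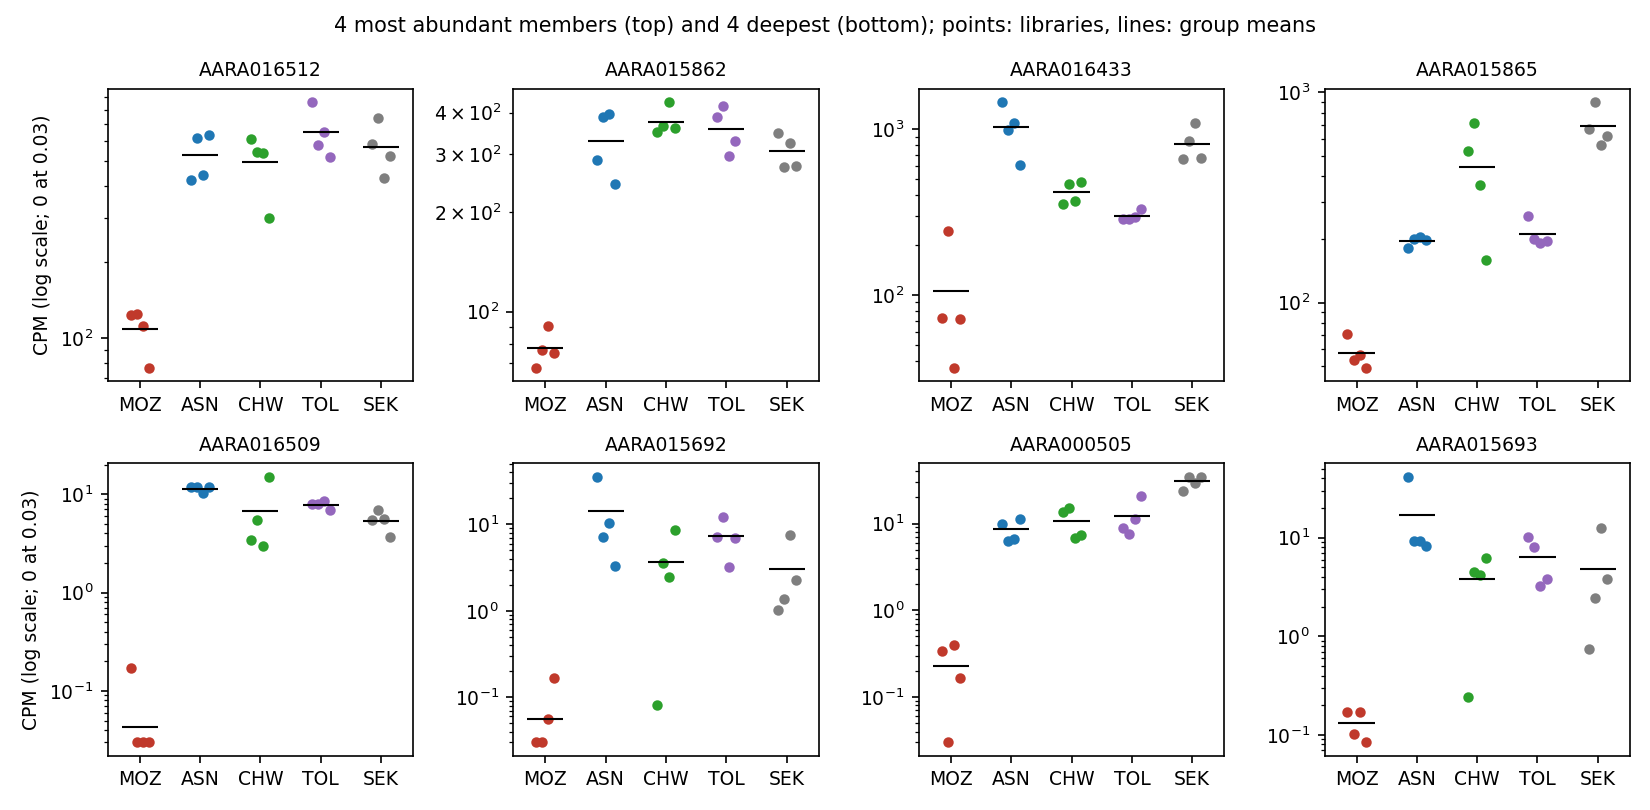
CPM by library on a log scale for the 4 members with the highest lowest-other mean (top row) and the 4 with the largest ratio to MOZ (bottom row). Each point is 1 library and each line a group mean; values of 0 are drawn at 0.03. The MOZ mean is the lowest in every panel, between 57.3 and 109 CPM in the top row and between 0.0426 and 0.226 CPM in the bottom row. For AARA015692, CHW replicate 1 lies within the MOZ range.

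Within MOZ the replicates were not equally low. Among the 90 members with counts in every MOZ library, the highest library exceeded the lowest by a median of 2.52 times. The ratio was under 2 in 28 of them and at least 5 in 12. The extreme case was AARA000319, at 5.07 CPM in its highest MOZ library and 0.256 CPM in its lowest, and the high value exceeded its CHW mean of 4.78 CPM. It was the only member with a MOZ library above its lowest other mean. Each MOZ library was the lowest for some members, MOZ replicate 4 in 33, replicate 2 in 25, replicate 1 in 24 and replicate 3 in 19. The median coefficient of variation over members was 0.407 in MOZ, against 0.346 in ASN, 0.398 in CHW, 0.317 in TOL and 0.249 in SEK.

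All MOZ libraries came from the later of the 2 sequencing runs named in the titles, together with all SEK libraries and CHW replicates 3 and 4. Within that run alone, with SEK and these CHW libraries as the only other groups, 92 of the 101 members still met the rule. All SEK libraries are in that run and their means chose the members, so only the 2 CHW libraries could change this count, and nothing is read from it. ASN and TOL were read in the earlier run alone, so a run effect beside the groups can be estimated from CHW only. Between the CHW libraries of the later run and those of the earlier one, edgeR's quasi-likelihood test called 0 members and 0 of 11352 genes (0%) at an adjusted p under 0.05 and at least 2-fold. An unadjusted p under 0.05 was found for 9 members and for 593 genes, and DESeq2 called 0 members. Their log2 fold changes ran from -1.91 to 2.45, with a median of -0.01, and 2 members were called when CHW replicate 3 was left out. The number over all genes under that omission is not given.

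Among the 4 groups in which they were not low, the members fell into level genes and variable ones. The highest and lowest of the 4 means differed by less than 1.5 times in 25 members and by at least 2 times in 59. At least 5 times was reached in 15 and at least 10 times in 9. The median was 2.24, against 1.38 over the 9861 genes. The 25 level members had a median ratio to MOZ of 2.90, and in 21 of them no MOZ library overlapped with the others. The rule used this contrast and the share over all level genes was not counted, so nothing is read from the 21. AARA005755 was the most expressed of the level members with a gap over 5, at 13.7, 12.5, 21.3 and 19.5 CPM in MOZ, against 121 to 189 CPM in ASN, 133 to 209 in CHW, 146 to 185 in TOL and 127 to 173 in SEK. It was singled out after its values were seen.

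The lowest of the 4 means was found in SEK for 31 members, CHW for 26, TOL for 23 and ASN for 21. The highest was in ASN for 29, SEK for 27, TOL for 25 and CHW for 20. The same counts over all genes are not given, so nothing is read from these numbers. The order TOL, ASN, CHW and SEK from high to low was the most frequent, in 16 members (15.8%), and held for 7.06% of the 9861 genes. Over those genes the most frequent order was SEK, CHW, ASN and TOL (16.9%), which held for 1 member (0.990%). Being low in MOZ thus did not go with 1 fixed order of the other groups.

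The rule set a floor for the lowest of these 4 means and did not use the differences among them, so these were tested, with the fit on all genes and p-values adjusted over the 11018 tested. All 101 members passed the filter on low counts. A call needed an adjusted p under 0.05 and at least a 2-fold change in edgeR's quasi-likelihood test. Comparisons that name the same group share its libraries. The members had a median biological coefficient of variation of 0.345 against 0.158 over all genes tested, and the part of this in the counts below was not tested.

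Against SEK, 21 members were called higher and 7 lower in ASN, 27.7% of the members where 7.62% of all genes were called, 4.87% higher and 2.75% lower. In CHW 15 were higher and 4 lower, 18.8% against 3.66% of all genes, of which 2.03% were higher and 1.62% lower. In TOL 15 were higher and 7 lower, 21.8% against 7.99% of all genes, of which 5.84% were higher and 2.14% lower. The median log2 fold change of the members was 0.27 in ASN, 0.09 in CHW and 0.22 in TOL, while that of all genes was -0.02, -0.00 and -0.02. In each population more members were therefore called higher than lower. The same held for all genes, so this direction is not particular to the members. Scaling by library totals alone, however, gave 13 members higher and 10 lower in ASN and 12 higher and 17 lower in TOL. That scaling shifted the median of all genes by -0.32 in ASN, -0.15 in CHW and -0.44 in TOL. With the sequencing run as a covariate the number of calls was 15 in place of 28 for ASN, and with CHW replicates 3 and 4 alone it was 7 in place of 19 for CHW. The share of all genes called under these other settings is not given, so nothing particular to the members is read from them.

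Between populations, ASN exceeded CHW for 11 members and was below it for 8, 18.8% of the members against 3.64% of all genes, of which 2.82% were higher and 0.817% lower. In CHW 6 were higher and 8 lower than in TOL, 13.9% against 3.50% of all genes, of which 0.781% were higher and 2.72% lower. In ASN 7 were higher and 0 lower than in TOL, 6.93% against 1.39% of all genes, of which 1.04% were higher and 0.345% lower. By library totals alone the splits were 8 higher and 11 lower for ASN against CHW and 10 higher and 8 lower for CHW against TOL, with shifts of the median of all genes of -0.17 and 0.28, and 8 higher and 0 lower for ASN against TOL with a shift of 0.11. Single libraries weighed on these counts, and the numbers over all genes under such omissions and by library totals are not given. Without CHW replicate 1 the number was 12 for ASN against CHW. For CHW against TOL it was 7 without CHW replicate 1, CHW replicate 2 or TOL replicate 1, and 8 without TOL replicate 2. For ASN against TOL the omission of ASN replicate 2 left 4 calls, that of replicate 3 left 3 and that of replicate 4 gave 11.

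**Figure D4:**
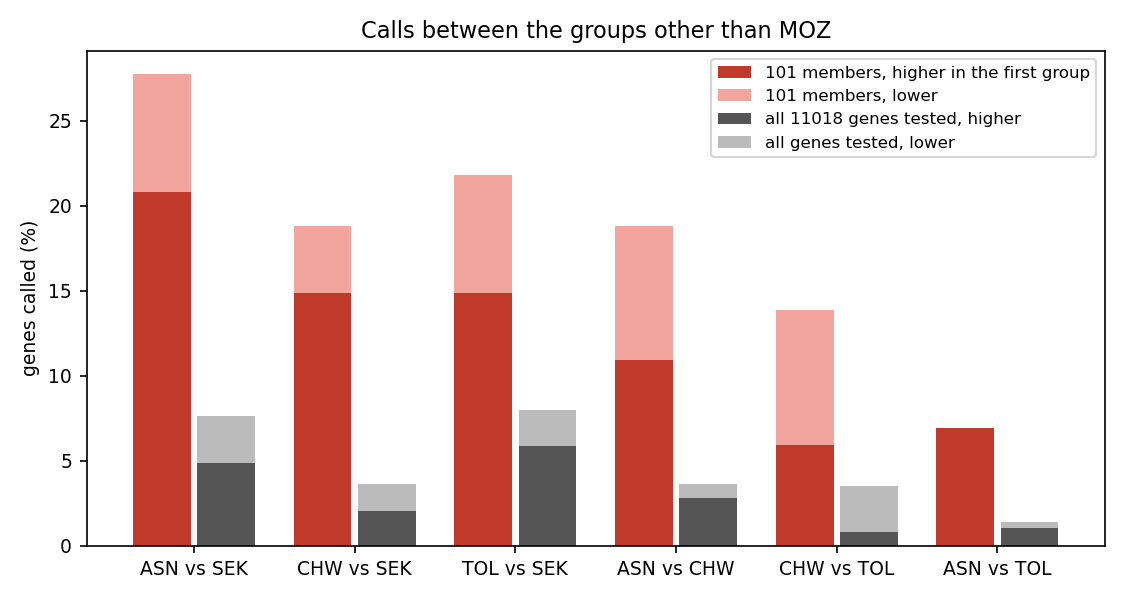
Share of genes called (%, adjusted p under 0.05 and at least 2-fold, edgeR) in the 6 comparisons among ASN, CHW, TOL and SEK, for the 101 members (red) and for all 11018 genes tested (grey), each split into genes higher and lower in the group named first. The members reach 27.7% in ASN against SEK and 6.93% in ASN against TOL, where all genes reach 7.62% and 1.39%.

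Over the 6 comparisons 45 members were called at least once and 56 in none. The same count over all genes was not made, so nothing is read from these numbers. None of the 25 level members was called, as a call needed a 2-fold change and their means differed by less than 1.5 times. The largest number of comparisons with a call was 4, reached by 6 members, namely AARA000767, AARA001390, AARA007373, AARA011117, AARA011273 and AARA015865.

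AARA011117 had the largest increase over SEK in ASN and in TOL. In MOZ it had 1.45, 1.32, 2.27 and 0.587 CPM. Its levels were 86.2, 319.28, 192 and 217 CPM in ASN, 41.8, 56.6, 121 and 6.88 CPM in CHW, and 497, 231, 355 and 239 CPM in TOL, against 3.17, 1.78, 35.3 and 1.74 CPM in SEK. SEK replicates 2 and 4 lay within the MOZ range, and SEK replicate 3 made up most of the SEK mean. The log2 fold change over SEK was 4.43 in ASN (SE 0.853, edgeR adjusted p 0.00111) and 5.19 in TOL (SE 0.881, edgeR adjusted p 0.000278), and no library of ASN or TOL overlapped with SEK. In CHW it was 2.61 (SE 0.803, edgeR adjusted p 0.0436), a call that 14 of 27 alternatives lost, with adjusted p-values from 0.00159 to 0.192. CHW was below TOL at -2.59 on the log2 scale (SE 0.770, edgeR adjusted p 0.0328), which 7 of 27 alternatives lost, with adjusted p-values from 0.00690 to 0.0942.

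AARA005143 showed a like pattern. It had 2.13, 2.03, 3.97 and 1.17 CPM in MOZ. It had 56.7, 236, 170 and 262 CPM in ASN and 370, 200.3, 227 and 208 CPM in TOL, against 3.91, 2.20, 38.8 and 3.19 CPM in SEK. The SEK libraries other than replicate 3 lay within the MOZ range, and replicate 3 made up most of the SEK mean. Its log2 fold change over SEK was 4.04 in ASN (SE 0.798, edgeR adjusted p 0.00135) and 4.60 in TOL (SE 0.817, edgeR adjusted p 0.000420). The first was lost with the run as a covariate, at 4.35 and an adjusted p of 0.0540, the largest of 26 alternatives, the smallest being 2.96e-05.

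Both belong to 7 members whose ASN and TOL means were at least 2 times the CHW and SEK means, a group formed after the values were seen. The others are AARA001390, AARA007248, AARA007373, AARA007374 and AARA011118. AARA007374 had 0.852, 1.01, 1.13 and 1.26 CPM in MOZ and 0.809, 0.508, 22.4 and 0.799 CPM in SEK. AARA011118 had 5.03, 4.46, 6.91 and 2.52 CPM in MOZ and 7.22, 4.32, 37.9 and 2.32 CPM in SEK. Apart from SEK replicate 3, SEK was thus no higher than MOZ for AARA007374 and overlapped with it for AARA011118. Without SEK replicate 3 the rule kept 94 of the 101 members. It lost AARA005143, AARA007374, AARA011117 and AARA011118, whose other SEK libraries each lay under 2.5 times the MOZ mean. The 7 are 6.93% of the members, and 0.700% of the 9861 genes had this pattern. All of the 7 but AARA007248 also belong to 11 members (10.9%) whose ASN, CHW and TOL means were each at least 2 times the SEK mean. That pattern held for 1.11% of the 9861 genes. AARA007373 and AARA007374 have consecutive IDs, as have AARA011117 and AARA011118. Summed over the 7, the level was 15.1 ± 5.85 CPM in MOZ, 761 ± 370 in ASN, 231 ± 169 in CHW, 1119 ± 322 in TOL and 60.3 ± 65.5 in SEK (mean ± SD, n = 4 each).

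In ASN, CHW, TOL and SEK, 1 library was the lowest or the highest of its group for most of the 7. In MOZ, replicate 4 was the lowest in 4 and replicate 3 the highest in 3. ASN replicate 1 was the lowest ASN library in 7 of 7 and CHW replicate 4 the lowest CHW library in 7 of 7. TOL replicate 1 was the highest TOL library in 6 and SEK replicate 3 the highest SEK library in 6. The sum was 254 CPM in ASN replicate 1 and 734 to 1100 CPM in the other ASN libraries, 36.6 CPM in CHW replicate 4 and 205 to 449 CPM in the other CHW libraries, and 159 CPM in SEK replicate 3 and 26.0 to 30.6 CPM in the other SEK libraries. The lower values of ASN and CHW and the upper value of SEK thus each came from 1 library.

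The group order of this sum was also that of the share of counts on the 13 mitochondrial protein-coding genes, which was 1.40% ± 0.741 in MOZ, 13.5% ± 1.83 in ASN, 5.60% ± 2.74 in CHW, 14.7% ± 2.06 in TOL and 4.23% ± 1.08 in SEK. The choice of the summed members fixed most of the order of their sum, with MOZ lowest and ASN and TOL above CHW and SEK. Only the order of TOL against ASN and that of CHW against SEK were free. Little is therefore read from the shared group order. Within groups the order of the libraries was not always shared. In CHW both measures were lowest in replicate 4 and highest in replicate 3. In TOL both were highest in replicate 1, at 1569 CPM and 16.9%, while the sum was lowest in replicate 2 and the share in replicate 4. In MOZ the sum was highest in replicate 3 and lowest in replicate 4, the share highest in replicate 1 and lowest in replicate 2. In ASN the sum was highest in replicate 2, where the mitochondrial share was lowest at 10.8%, and in SEK it was highest in replicate 3, where the share was lowest at 3.01%. The part of the mitochondrial share in these differences was not tested.

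**Figure D5:**
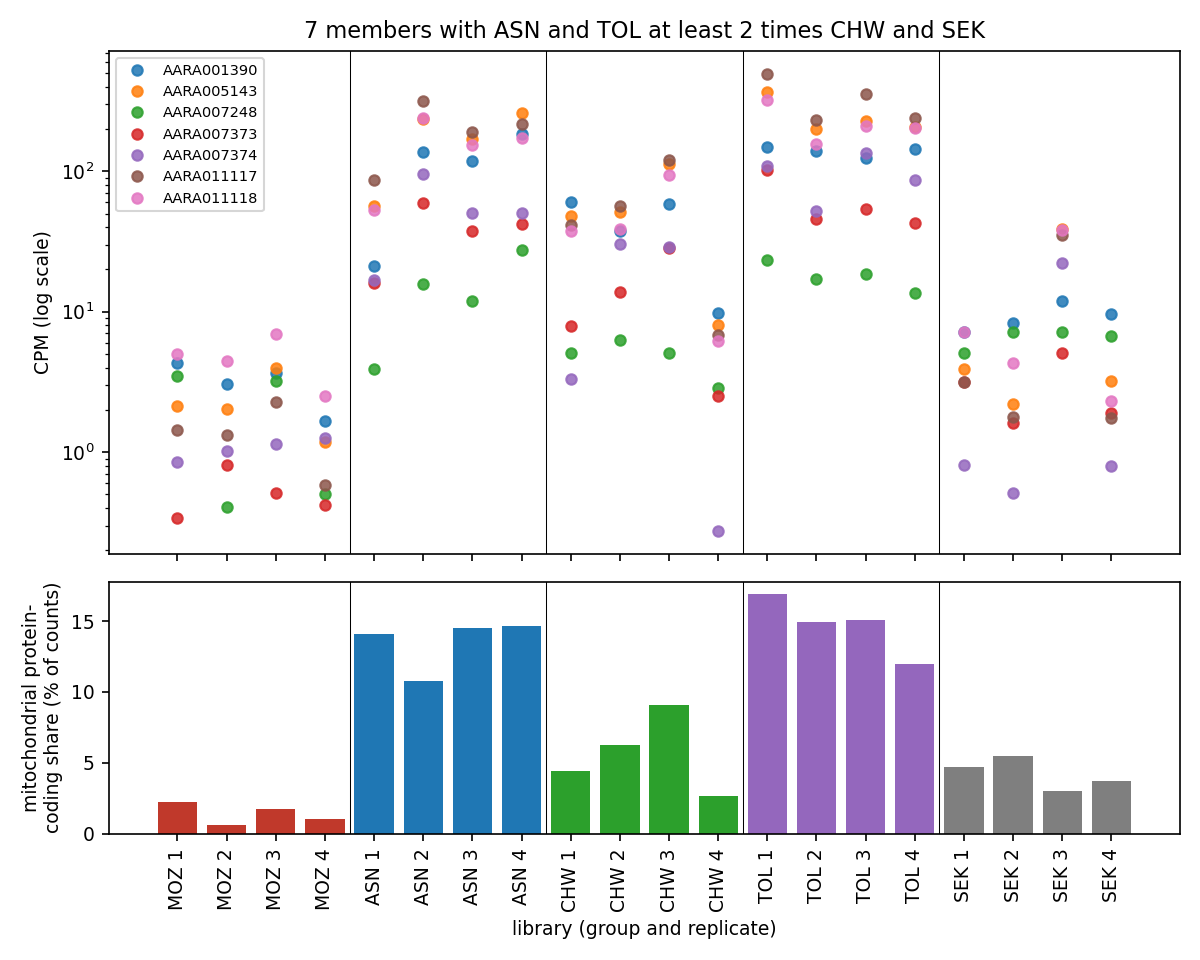
Upper panel: CPM by library (log scale) of the 7 members whose ASN and TOL means were at least 2 times those of CHW and SEK, 1 colour per gene. Lower panel: share of all counts on the 13 mitochondrial protein-coding genes in the same libraries (%). ASN replicate 1 and CHW replicate 4 are the lowest of their groups in 7 of 7 genes. SEK replicate 3 is the highest of SEK in 6 of 7, while its mitochondrial share is the lowest of SEK at 3.01%.

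AARA004015 had the largest increase of CHW over SEK. It had 3.66, 2.23, 3.63 and 1.43 CPM in MOZ. Its levels were 36.7, 50.7, 90.4 and 3.81 CPM in CHW, against 10.5, 4.99, 8.91 and 3.34 CPM in SEK. The log2 fold change was 2.81 (SE 0.617, edgeR adjusted p 0.00640), although CHW replicate 4 lay within the SEK range. The call was lost in the later run alone, where 2 CHW libraries remained, at a log2 fold change of 2.88 and an adjusted p of 0.0830, the smallest over 27 alternatives being 0.000158.

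AARA011273 ran the other way, high in CHW and SEK. It had 4.52, 5.47, 6.46 and 6.29 CPM in MOZ, 38.4, 30.8, 28.5 and 46.2 CPM in ASN, 821, 651, 457 and 76.8 CPM in CHW, 210, 75.5, 87.1 and 20.3 CPM in TOL, and 444, 816, 286 and 473 CPM in SEK. It was lower than SEK in ASN, at -3.76 on the log2 scale (SE 0.640, edgeR adjusted p 0.000409), and in TOL, with -2.20 (SE 0.596, edgeR adjusted p 0.00947). Compared with CHW it was lower in ASN, at -3.83 (SE 0.642, edgeR adjusted p 0.000679). CHW exceeded TOL by 2.27 (SE 0.598, edgeR adjusted p 0.0181), a call lost without CHW replicate 1, TOL replicate 2 or TOL replicate 3, with adjusted p-values from 0.00266 to 0.0642 over 27 alternatives. AARA015865, described above, was the only other member with CHW and SEK means both at least 2 times those of ASN and TOL. These 2 are 1.98% of the members, and 0.243% of the 9861 genes had this pattern.

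SEK means were at least 2 times those of every population in 5 members (4.95%), among them AARA000505 above and AARA010216. Of the 9861 genes 0.558% had this pattern. AARA010216 had 0.596 to 1.26 CPM in MOZ, 21.6 to 40.2 in ASN, 13.9 to 29.3 in CHW, 10.5 to 26.7 in TOL and 55.7 to 104 in SEK. In CHW it was lower than in SEK, with a log2 value of -1.79 (SE 0.281, edgeR adjusted p 0.000559). AARA002343, with 0.324, 2.87, 0.852 and 5.24 CPM in CHW against 7.69, 13.4, 13.7 and 11.3 CPM in SEK, was lower by -2.22 (SE 0.532, edgeR adjusted p 0.0114), a call lost with the run as a covariate (adjusted p 0.114, the largest of 27 alternatives, the smallest being 0.00212) and in the later run alone. AARA004668 had 0.596, 2.13, 0.510 and 2.18 CPM in MOZ, 2.26 to 10.5 in ASN and 4.80 to 7.47 in TOL, against 6.20, 10.7, 86.7 and 5.66 in SEK. Its log2 fold changes of -2.40 in ASN (SE 0.713, edgeR adjusted p 0.0190) and -1.91 in TOL (SE 0.697, edgeR adjusted p 0.0456) rested on SEK replicate 3, without which they were -0.65 and -0.16 with adjusted p-values of 0.370 and 0.844, the largest of 26 alternatives each; the smallest were 0.00645 and 0.00710.

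AARA001805 and AARA002101, also of these 5, changed between libraries of the same population. AARA002101 had 0.170 to 0.608 CPM in MOZ. It had 0.0836, 0.442, 0.333 and 20.5 CPM in ASN, 0.568, 2.37, 13.7 and 1.98 CPM in CHW, 0.312, 3.94, 0.336 and 12.3 CPM in TOL, and 16.7, 35.3, 26.4 and 16.3 CPM in SEK. AARA001805 had 0 to 0.341 CPM in MOZ, and 0.0836, 0.368, 0.466 and 11.3 CPM in ASN, 0.487, 0.761, 5.27 and 0.885 CPM in CHW, 0.156, 1.45, 0.336 and 5.83 CPM in TOL, and 9.10, 16.5, 9.75 and 8.71 CPM in SEK. In both, ASN replicate 4, CHW replicate 3 and TOL replicate 4 were the high field libraries. ASN replicates 1, 2 and 3, CHW replicate 1 and TOL replicates 1 and 3 had no more AARA002101 than the highest MOZ library. For these members, singled out after their values were seen, a low level was therefore found outside MOZ too, in libraries of groups with higher means.

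An ASN mean at least 2 times those of CHW, TOL and SEK was found in 6 members (5.94%) and in 0.395% of the 9861 genes. AARA000610 had 1.34 to 3.92 CPM in MOZ. Its ASN libraries had 306, 107, 154 and 42.1 CPM, while CHW ran from 9.84 to 20.3 CPM and TOL from 4.91 to 20.3 CPM. Its log2 fold change was 3.47 over CHW (SE 0.526, edgeR adjusted p 0.000297) and 3.85 over TOL (SE 0.540, edgeR adjusted p 0.000700), with no overlap of libraries in either. AARA005026 had 4.65 to 35.0 CPM in MOZ. It had 490.01, 342, 487 and 213 CPM in ASN against 40.2 to 81.4 in TOL, and its log2 fold change over TOL was 2.72 (SE 0.475, edgeR adjusted p 0.00229). AARA015693, whose values are given above, was higher in ASN than in CHW by 2.22 (SE 0.710, edgeR adjusted p 0.0441). That call was lost in 13 of 27 alternatives, with adjusted p-values from 0.0270 to 0.268, the largest without ASN replicate 1, where the log2 fold change was 1.23.

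CHW stood highest in 4 members by the same measure, AARA005874, AARA015644, AARA015787 and AARA016532. They are 3.96% of the members, and 0.132% of the 9861 genes had this pattern. AARA015787 had 1.42 to 3.06 CPM in MOZ. It had 6.92 to 16.5 CPM in ASN, against 33.7, 51.2, 109 and 12.9 CPM in CHW, with 8.76 to 25.6 in TOL and 10.8 to 15.98 in SEK. It was lower in ASN than in CHW, with a log2 value of -2.29 (SE 0.479, edgeR adjusted p 0.00341). CHW exceeded TOL by 1.84 (SE 0.471, edgeR adjusted p 0.0152), lost in 4 of 27 alternatives, with adjusted p-values from 0.00166 to 0.0797 and a log2 fold change of 1.13 without CHW replicate 3. AARA011118, of the 7 above, was lower in CHW than in TOL, with 37.8, 38.6, 94.8 and 6.20 CPM in CHW against 320, 156, 211 and 205 CPM in TOL and a log2 ratio of -2.36 (SE 0.697, edgeR adjusted p 0.0314). This call was lost in 5 of 27 alternatives, with adjusted p-values from 0.00795 to 0.0905, among them leaving out CHW replicate 1 or 2 or TOL replicate 1 or 3.

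Members with consecutive IDs formed 4 pairs. Besides AARA007373 with AARA007374, AARA011117 with AARA011118 and AARA015692 with AARA015693, the fourth was AARA003521 with AARA003522. AARA003521 averaged 2.62 CPM in MOZ, 14.7 in ASN, 11.9 in CHW, 15.5 in TOL and 7.94 in SEK. AARA003522 averaged 13.99 CPM in MOZ, 97.2 in ASN, 133 in CHW, 82.3 in TOL and 71.7 in SEK. In the pairs AARA007373 with AARA007374 and AARA011117 with AARA011118 both genes had the order TOL, ASN, CHW and SEK from high to low. AARA015692 and AARA015693 were both highest in ASN and next in TOL. Whether such IDs mark neighbouring, overlapping or duplicated genes was not established, and counts of genes that share reads with a near-identical copy are uncertain.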

How the data were processed

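The 20 libraries were made from polyA RNA with a stranded kit. The deposited values are raw read counts per gene and library, whole numbers that the authors did not normalize, and the table holds 1 column per library. Per the submitters' processing notes, FastQC 0.11.4, HISAT2, Cufflinks, SAMtools 1.5 and HTSeq 0.9.0 were used. Not given in the sources used here were the genome build, the annotation, the strand setting and the treatment of reads shared by several genes, so counts of overlapping or near-identical genes are uncertain.

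From these counts, CPM over the AARA counts were computed without further scaling for the rule and for all levels shown. The members and lists were chosen with earlier results of these data known. Groups follow the library titles. Differences among ASN, CHW, TOL and SEK were tested with edgeR 4.0.16 in R 4.3.3, with TMM scaling, filterByExpr and 1 quasi-likelihood fit over all 20 libraries, and adjusted by Benjamini-Hochberg over 11018 genes. A call needed an adjusted p under 0.05 and a 2-fold change. The contrast of MOZ with the other groups chose the members and was not tested. The code was tested on simulated data. Exact 95% intervals on ratios of counts cover counting error only.

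The members named in the text are the 4 with the highest lowest-other mean, the 4 with the largest ratio to MOZ, the genes on either side of the 2.5-fold limit and, in each comparison, the 2 called higher and the 2 called lower with the largest fold change. Others are marked as chosen after their values were seen or belong to a counted group of 7 or fewer. Lists of pathway genes and marker genes planned by product name could not be run, because 0 of the 13830 AARA IDs matched the RefSeq gene table at hand, and so the whole-body origin was not checked against markers. Alternatives were another threshold, scaling or denominator, DESeq2 1.42.0, no low-count filter, a replicate block, the sequencing run as a covariate or 1 run alone, and each library left out.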

Additional observations from a re-analysis of the deposited data

Results flagged for a closer look

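In each of the 5 groups of 4 libraries, the named members were searched for a library whose gap to the nearest other library divided by the group's range, both on the log2(CPM + 0.1) scale, passed Dixon's 95% critical value. Of 95 groups of values, for 19 members, 8 had such a library, where chance gives about 1 in 20. AARA016509 had 0.170 CPM in MOZ replicate 1, which is 2 counts, with 0 in the other MOZ libraries, where any count would have passed, and 10.3 CPM in ASN replicate 3 with 11.7 to 11.9 CPM in the other ASN libraries. AARA015693 had 41.8 CPM in ASN replicate 1 with 8.33 to 9.26 CPM in the other ASN libraries, and 0.243 CPM in CHW replicate 1 with 4.18 to 6.27 CPM in the other CHW libraries. AARA002343 had 2.20 CPM in ASN replicate 3 with 5.58 to 6.69 CPM in the other ASN libraries. AARA015787 had 15.98 CPM in SEK replicate 1 with 10.8 to 11.4 CPM in the other SEK libraries. AARA015865 had 259 CPM in TOL replicate 1 with 191 to 200.5 CPM in the other TOL libraries, and AARA016433 had 330.1 CPM in TOL replicate 4 with 287 to 294.03 CPM in the other TOL libraries.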

How the results depend on the processing

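The rule gave 162 genes at a 2-fold limit, 61 at 3-fold and 60 with a floor of 5 CPM, in place of 101. It gave 117 with TMM-scaled CPM, which held all 101 members, 70 with all counts as the denominator and 91 with group medians, of which 77 were members. Leaving out 1 library gave 88 to 115. The number of members called ranged under such omissions from 20 to 34 for ASN against SEK, 13 to 21 for CHW against SEK, 20 to 26 for TOL against SEK and 12 to 25 for ASN against CHW, the 12 without CHW replicate 1. It ranged from 7 to 17 for CHW against TOL, at 7 without CHW replicate 1, CHW replicate 2 or TOL replicate 1 and 8 without TOL replicate 2. It ranged from 3 to 11 for ASN against TOL, at 4, 3 and 11 without ASN replicates 2, 3 and 4, and from 0 to 2 between runs within CHW, the 2 without CHW replicate 3. The run as a covariate gave 15 for ASN against SEK, and the later run alone gave 7 for CHW against SEK. The cause was not tested, and the numbers over all genes under these settings are not given. Scalings, DESeq2, no filter and no fold limit kept the other counts within 1.5 times. A fit of ASN or TOL against SEK within 1 run was not possible.

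The replicate numbers were not used to pair the libraries in the main fit. The deviations of same-numbered libraries correlated between -0.19 and 0.53, and in no comparison were all 4 over 0.1. In TOL against SEK 3 of the 4 were over 0.1 and in ASN against TOL 2 were, so a partial pairing was not excluded. With a replicate block the calls were 24, 21 and 22 for ASN, CHW and TOL against SEK, 23 for ASN against CHW, 15 for CHW against TOL and 7 for ASN against TOL. The numbers over all genes with the block are not given, so nothing particular to the members is read from these counts.

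Of the log2 fold changes of named members, 18 values under other settings and 48 with 1 library left out lost the call, the rest kept it, and 0 reversed. The ratios to MOZ of members with few MOZ counts are limited by those counts.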
